A study of Mus musculus with 4 samples.

Results

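Non-dividing B progenitors of the library in which both Mll3 and Mll4 were deleted numbered 2372 cells, out of 7408 barcodes of that library and 27166 barcodes of the series that passed the quality filter. They were chosen from their own RNA. A barcode needed at least 500 genes, at least 1000 gene UMIs (unique molecular identifiers, each counting 1 captured RNA molecule) and at most 10% mitochondrial UMIs. The summed UMIs of Cd79a, Cd79b, Vpreb1, Vpreb3, Igll1 and Ebf1 had to reach 20 per 10000, which is called the B gate here. The summed UMIs of the mitosis genes Mki67, Top2a, Cdk1, Ccnb1, Ccnb2, Cenpf, Birc5 and Tpx2 had to stay under 1 per 10000. The series profiled CD45.2-positive, Kit-positive mouse bone marrow at 10 weeks after transplantation, in 4 groups. These were a control group, a deletion of Mll3, a deletion of Mll4 and the double deletion, named Mll3/4-deleted here. Gene and surface antibody counts were read from the same cells with a 10x Genomics 3′ kit. The labels name no allele, Cre driver, donor number or conditioning of the host, and they do not say what the 2 hashtag antibodies mark.

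B progenitors start in the marrow as pro-B cells, which cut and join the heavy chain gene with Rag1, Rag2 and Dntt and depend on the interleukin-7 receptor. A finished heavy chain pairs with the surrogate light chain, made of Vpreb and lambda 5 (Igll1) proteins, to form the pre-B receptor. Signals from that receptor drive a burst of division, after which small resting pre-B cells stop cycling and rearrange a light chain gene. Mll3 and Mll4, encoded by Kmt2c and Kmt2d, are histone methyltransferases that act mainly at enhancers.

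Each group held 1 library, so no difference has a replicate check. Every interval is a 95% interval for counting error only, and every comparison is between libraries or between sets of cells of 1 library. Quality barcodes of the control, Mll3, Mll4 and Mll3/4 libraries had medians of 16052, 17522, 5221 and 10106 UMIs. Non-dividing B-gate cells of the other libraries were fewer and shallower. Control had 176 with a median of 3125 UMIs, the Mll3 deletion 150 with 3007.5 and the Mll4 deletion 53 with 1274, against 8571 in the members. Of the member barcodes, 4 also occurred in control, 4 among those of the Mll3 deletion and 2 among those of the Mll4 deletion. Counts were not corrected for free RNA. Kmt2c was at 35.7 CPM (counts scaled to 1000000 gene UMIs) in the members, 50.4 in control, 50.1 in the Mll3-deleted and 65.2 in the Mll4-deleted non-dividing cells. Kmt2d was at 27.5, 47.1, 27.0 and 39.1 CPM in the same order. The labels do not give the deleted part of either gene, and 3′ counts from outside a deleted part check nothing.

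The label was checked against the 4 B-progenitor markers. Ebf1, a transcription factor that commits cells to the B lineage, was at 2033 CPM (2014 to 2052) in the members and 25.5 CPM in the 85 cells of the library outside the B gate. Cd79a, a signalling chain of the B-cell receptor, was at 3144 and 39.5 CPM in these sets, but both genes belong to the rule. Pax5 and Il7r do not. Pax5, which keeps B cells committed, was at 367.5 CPM (359.5 to 375.6) in the members and 9.71 CPM outside the gate. Il7r, the interleukin-7 receptor alpha chain, was at 786 CPM (775 to 798) and 51.0 CPM. With every cell thinned to 3000 UMIs, Pax5 was seen in 60.4% of members and 2.53% of the cells outside the gate, and Il7r in 77.4% and 12.7%. On RNA, the B part of the label therefore held on the 2 markers that the rule did not use. Antibody counts were mixed. CD127, the Il7r protein, had a median of 39 in members and 4 outside the gate. B220, the B-lineage form of CD45, had medians of 13 and 8. In control the B220 medians were 221 in non-dividing cells and 4 outside the gate.

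Most marker lists of other cell types were low in the members, except those with genes that B progenitors also express. The 20 myeloid genes summed to 203.1 CPM, against 111830 CPM in the cells outside the gate and 6541 CPM in non-dividing control cells. The 10 megakaryocyte genes summed to 1.47 CPM with 8 of them at 0, and the 15 erythroid genes to 145.0 CPM. The 14 T, NK and innate lymphoid genes summed to 33.3 CPM, of which Gata3 made up 14.2 CPM, and 2 were at 0. The 11 dendritic cell genes summed to 1147 CPM in members and 989 outside the gate, of which Tcf4, also a B-lineage factor, made up 847 CPM in members, and 5 were at 0. The 6 plasma cell genes summed to 1310.0 CPM against 87.4, with Mzb1, also expressed in B progenitors, at 1242 CPM, and the 14 mature B genes to 726.0 against 924 CPM. The stem cell list stood apart from these, at 361.8 CPM over 20 genes with 7 at 0, including the defining markers Procr and Mecom.

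Non-dividing cells were 32.4% of the 7323 B-gate cells of the library (31.3 to 33.5%). Control gave 32.5% (28.5 to 36.6%), the Mll3 deletion 27.5% (23.8 to 31.4%) and the Mll4 deletion 31.2% (24.3 to 38.7%), so the members' interval overlapped each of the others. These shares are not at equal depth. B-gate cells had a median of 10079 UMIs in the Mll3/4-deleted library and 4588.5 in control. The medians were 4443 in the Mll3 deletion and 2337.5 in the Mll4 deletion. Of the members, 1949 had no UMI of the 8 mitosis genes and 423 had some, up to 0.9997 per 10000. The nearest cell past the threshold stood at 1.0002 per 10000, and 1053 cells lay between 1 and 2. The edge of the B gate was read among cells under 1 mitosis-gene UMI per 10000 only. There the lowest member had 27.2 B-gate UMIs per 10000 and the highest cell below the gate 13.5. In the Mll3/4-deleted library the share moved with depth. With B-gate cells cut into 3 equal parts by UMIs, it was 44.9% in the part with the fewest, 32.7% in the middle part and 19.5% in the part with the most. After thinning to 3000 UMIs it was 45.4% (3239 of 7128 cells). In control 129 cells were non-dividing after thinning. Before thinning, the control B-gate cells of 3000 or more UMIs were 103 non-dividing, 100 intermediate and 207 dividing. No share was computed for the other libraries at that depth, so the overlap given above is not shown at equal depth.

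**Figure D1:**
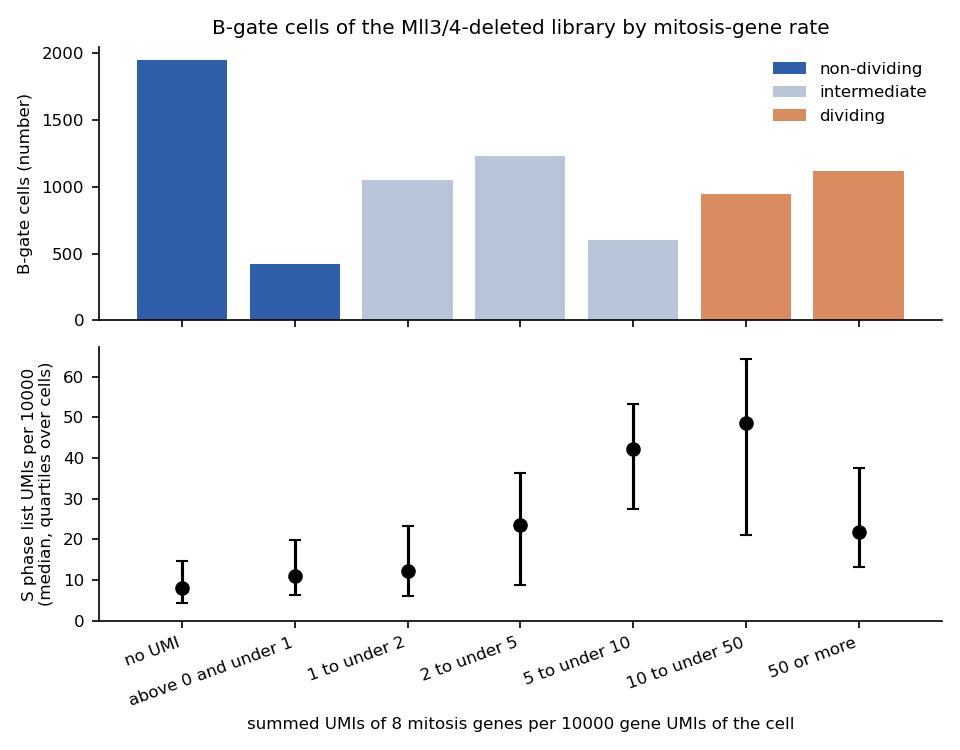
Upper panel, the number of B-gate cells of the Mll3/4-deleted library in each range of summed UMIs of the 8 mitosis genes per 10000, and lower panel, the summed UMIs of the 30 S phase genes per 10000 (median and quartiles over cells). The 2 lowest ranges hold the 1949 and 423 members, whose median S phase level was 7.997 and 11.1, and the level peaks at 48.7 in the range from 10 to under 50.

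Low mitosis-gene counts did not always go with low replication-gene counts. The 30 S phase genes, none of which the rule used, had a median of 8.35 UMIs per 10000 in members and 30.1 in dividing cells, defined here as the 2066 B-gate cells at 10 or more mitosis-gene UMIs per 10000. Among members, 674 (28.4%) lay at or above the lowest quartile of the dividing cells (14.3 per 10000), and 134 (5.65%) at or above their median. The word non-dividing thus describes mitosis genes, and a part of the members carried replication RNA. The 2885 intermediate cells, from 1 to under 10 mitosis-gene UMIs per 10000, reached the lowest quartile in 62.0% of cells.

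The contrast with dividing cells is the one the rule drew, so its values are description. Of 12216 genes with at least 20 counts in either set, 266 (2.18%) were at least 2-fold higher in members and 913 (7.47%) at least 2-fold lower. With dividing cells taken from 1 mitosis-gene UMI per 10000, 14 were higher and 590 lower, and with 10 CPM added, 25 and 488. Among the S phase genes 18 of 30 were at least 2-fold lower and 0 higher, with a median log2 ratio of -1.14 (medians of the members' lower and upper bounds, -1.23 to -1.06). All log2 ratios here have 1 CPM added to both sides. The median over all tested genes was 0.04.

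Replication genes differed among themselves. Rrm2, a subunit of ribonucleotide reductase, was at 9.65 CPM in members, 37.4 in intermediate and 277 in dividing cells. Pcna, the sliding clamp of DNA polymerase, was at 119.6, 359 and 347 CPM, so that the intermediate cells were as high as the dividing ones. Mcm6, a subunit of the replicative helicase, peaked in between, at 139 CPM in members, 234 in intermediate and 130 in dividing cells. Against the intermediate set, the median of the S phase genes was -1.27, with 18 of 30 genes at least 2-fold lower where 1.02% of 12142 genes were. The helicase genes Mcm2, Mcm3 and Mcm4 also had their highest values in the intermediate cells, at 83.4, 185 and 102 CPM.

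Genes of mitosis outside the rule were the most depleted. All 30 were at least 2-fold lower than in dividing cells, with a median of -5.00 (-5.25 to -4.70). Hmmr, a spindle protein, was at 1.88 CPM in members, 2.21 in intermediate and 285 in dividing cells. Ube2c, which feeds the anaphase-promoting complex, was at 7.76, 9.33 and 815 CPM. Intermediate cells were close to members here: the list median against them was -0.30 and 1 of 30 genes was at least 2-fold lower. The genes with the lowest ratios to dividing cells, after Hmmr and Ube2c, were Esco2, Kif11, Kif15, Cdca8, Hist1h2ap, Cenpe, Aspm and Ccna2, at 1.33 to 8.68 CPM in members.

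Growth and cell cycle exit genes gave a mixed picture. Bmf, a pro-apoptotic member of the Bcl2 family, was at 63.9 CPM (60.6 to 67.4) in members, 60.1 in intermediate and 13.4 in dividing cells. Slfn5 and Slfn2, of the Schlafen family, were at 20.4 and 116.8 CPM in members against 1.77 and 29.8 in dividing cells. Mxd4, a partner of Max that opposes Myc, was at 102.6 and 27.5 CPM, and Ccnd2, a D-type cyclin of the first gap phase, at 47.7 and 13.1. These 5 were among the 10 genes with the highest ratios, with Tcp11l2, Zfas1, Gimap1os, Fcrl1 and Ltb. The values in intermediate cells, such as 92.0 CPM for Mxd4 and 38.8 for Ccnd2, were near those of members, so these genes separated both sets from the dividing one.

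Among the 18 genes fixed as cell cycle exit genes, 1 was at least 2-fold higher in members than in dividing cells and 5 were lower, with a median of 0.08. Over all tested genes the shares were 2.18% and 7.47%. Pik3ip1, an inhibitor of PI3-kinase, was the list gene above 2-fold, at 101 against 45.4 CPM. The antiproliferative genes Btg1 and Btg2 were at 934 and 273 CPM in members, against 622 and 162. The inhibitors of cyclin-dependent kinases went the other way. Cdkn1a was at 12.4 CPM in members and 57.8 in dividing cells, Cdkn2d at 7.95 and 120, and Cdkn1c at 7.53 and 31.3. Of 22 ribosome biogenesis and Myc target genes, 0 passed 2-fold, with a median of 0.24. Myc itself was at 56.7 CPM in members and 48.8 in dividing cells. In control 21 of these genes could be tested between non-dividing and dividing cells, with a median of -0.34, and the difference between the libraries was not tested.

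**Figure D2:**
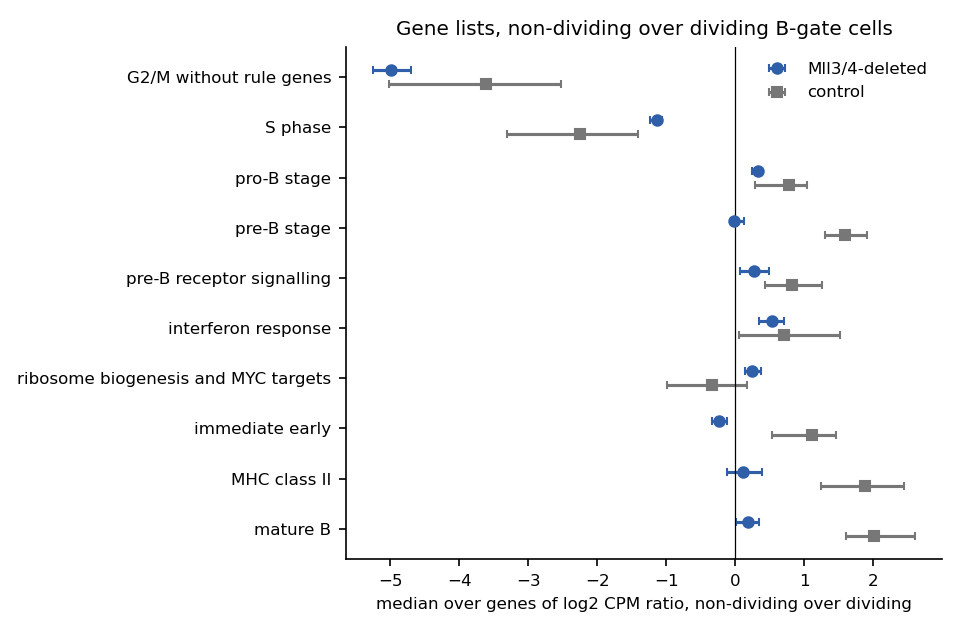
Median log2 CPM ratios of 10 gene lists, non-dividing over dividing B-gate cells, in the Mll3/4-deleted library (circles) and in control (squares), with bars from the median lower to the median upper bound of the genes (counting error only). The pre-B list lies at -0.02 in the Mll3/4-deleted library and 1.59 in control, and mitosis genes lie lowest in both.

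Stage genes differed little between members and dividing cells. The pro-B list, without its 2 rule genes, had a median of 0.33 (0.25 to 0.36), with 0 of 14 tested genes at least 2-fold higher and 1 lower, and 0.20 when dividing was taken from 1 mitosis-gene UMI per 10000. The pre-B list had a median of -0.02 (-0.07 to 0.13), which gives no direction, with 1 of 14 higher and 1 lower. Dntt, which adds bases at heavy chain joins, was at 729 CPM in members, 679 in intermediate and 592 in dividing cells. Rag1, a subunit of the recombinase, was at 499.6, 447 and 258 CPM, the largest difference among the recombination genes that were higher in members. Kit, the receptor by which the marrow was selected, was at 204 CPM in members and 167 in dividing cells, and Il7r was at 786 and 614. The 18 genes of the interleukin-7 receptor axis had a median of -0.02 (-0.10 to 0.05), with 1 at least 2-fold higher, which was Ccnd2. The 14 tested genes of pre-B receptor signalling had a median of 0.27 with 0 past 2-fold in either direction, as with Blnk, an adaptor of that receptor, at 466 and 453 CPM.

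In control, pre-B genes were higher in non-dividing than in dividing cells. The list had a median of 1.59 in control (1.30 to 1.91), with 10 of 15 genes at least 2-fold higher where 11.0% of 8408 genes were. It was 1.72 in the Mll3-deleted library, with 11 of 17 genes higher where 9.41% of 8109 genes were. Rag1 was at 682 CPM in non-dividing and 129 in dividing control cells, and Igkc, the kappa light chain, at 575 and 27.1 CPM. In members Igkc was at 16.7 CPM, close to the 12.1 CPM of dividing cells. The difference of these ratios between libraries was not tested. The dividing control cells also carried 38200 CPM of the 20 myeloid genes, against 6541 CPM in non-dividing ones, and 16.6% of them had doublet scores among the highest, against 3.41%. The part of these in the control ratios was not tested.

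Interferon response genes were somewhat higher in members. The median over 18 genes was 0.53 (0.34 to 0.70) against dividing cells, with 4 at least 2-fold higher and 0 lower, where 2.18% and 7.47% of all tested genes were. Ifit3 was at 15.5 CPM in members, 14.4 in intermediate and 3.27 in dividing cells, and Ifit1 at 31.6, 23.2 and 11.3. Isg20 and Irf7 were the other two, at 27.2 and 14.6 CPM in members.

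Set against non-dividing control cells, which were chosen by the same rule, the members differed in many genes. Of 11659 genes with at least 20 counts in either set, 1765 (15.1%) were at least 2-fold higher in members and 1513 (13.0%) lower, with an all-gene median of -0.09. Trimmed mean scaling moved that median to 0.18 and the split to 2306 higher and 1026 lower. The balance turned the other way with genes of 1 or more counts tested, at 1765 higher and 2665 lower, and with 10 CPM added in place of 1, at 399 higher and 714 lower, so the split gave no stable direction. The control set held 595043 UMIs against 21772013 in the members, so its counting error set the precision. The filter of 20 counts stood at 0.919 CPM in members and 33.6 CPM in control, so genes of low level entered mainly where they were present in members. With only cells of 5000 or more UMIs, which left 15 control cells, 4104 genes were higher and 1725 lower.

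The pre-B stage list was lower in the members. Its median was -1.52 (-1.77 to -1.27), with 9 of 15 tested genes at least 2-fold lower and 1 higher, where 13.0% and 15.1% of all genes were. Against the Mll3-deleted non-dividing cells it was -1.76, with 11 of 17 lower where 11.5% of genes were. Among cells of 5000 or more UMIs the median was -0.52 (-1.18 to 0.17) with 5 of 13 genes lower, which gives no direction at that depth, and with genes of 1 or more counts tested it was -2.52. Igkc was at 16.7 CPM in members (15.002 to 18.479), 575 in control (515 to 639), 2470 in the Mll3-deleted and 808 in the Mll4-deleted cells. Cd74, the invariant chain of MHC class II, was at 0.597 CPM in members (13 counts), 311 in control, 1253 in the Mll3-deleted and 1395 in the Mll4-deleted cells. Il2ra and Ms4a1, the latter encoding CD20, had 0 counts in members, which makes Ms4a1 at least 378-fold lower than in control against a floor of 3 counts over the members. Enpep, which encodes the BP-1 antigen of early pre-B cells, was the exception, at 323 CPM (316 to 331) in members and 31.9 (19.2 to 49.9) in control.

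Control and single-deletion cells included some with RNA of mature B cells, such as Ms4a1 and lambda constant genes. With all cells holding a UMI of Ms4a1, Iglc1, Iglc2 or Iglc3 left out of both libraries, a setting added once the values had been seen, the pre-B list had a median of -1.37 (-1.60 to -1.14) with 9 of 14 genes at least 2-fold lower where 13.2% of 11651 genes were. The MHC class II list went from -1.68 to -0.40, and to 0.15 among cells of 5000 or more UMIs, and the mature B list from -1.67 to -0.94. Igkc and Cd74 kept log2 ratios of -3.55 and -5.05 without those cells, and Vpreb2 had -8.18.

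**Figure D3:**
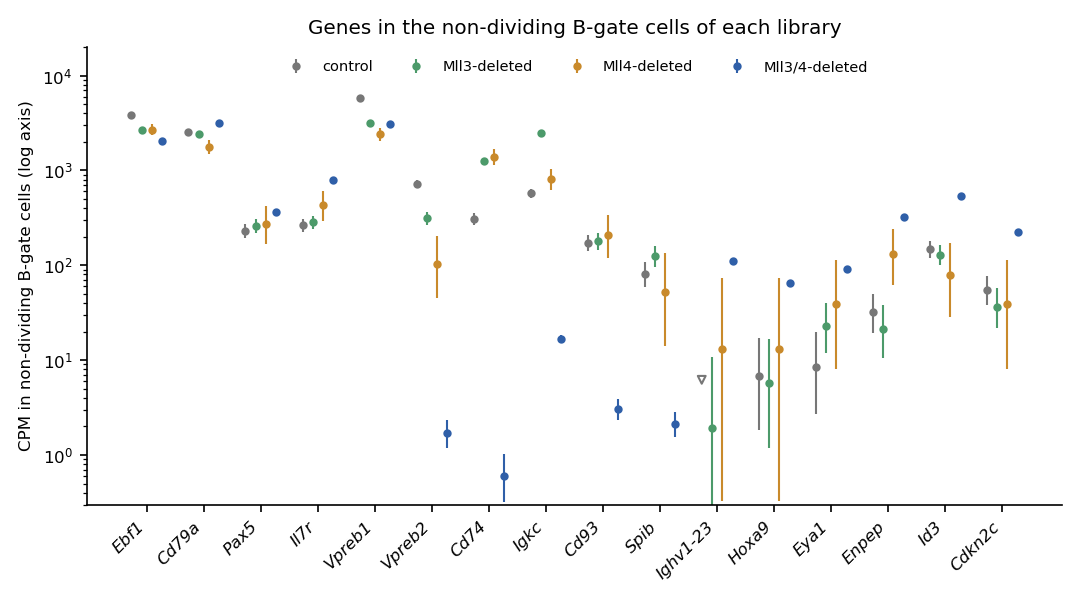
CPM of 16 genes on a log axis in the non-dividing B-gate cells of the 4 libraries, with 95% counting intervals; the open triangle marks the upper limit of that interval for Ighv1-23, which had 0 counts in control. Vpreb2, Cd74 and Igkc lie lower in members than in the other libraries, and Enpep, Id3 and Hoxa9 lie higher.

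Genes that carry the pre-B receptor signal were lower as a group. Of 14 tested, leaving out Cd79a and Cd79b, 11 were at least 2-fold lower than in control and 0 higher, with a median of -1.79 (-2.15 to -1.39). Over all tested genes, 13.0% were lower and 15.1% higher. Btk, the Tec kinase of the pathway, was at 4.68 CPM in members, 92.4 in control, 73.2 in the Mll3-deleted and 65.2 in the Mll4-deleted cells. Syk, the kinase that docks on the receptor, was at 24.8, 189.9, 221.6 and 130.3 CPM in that order. Blk, a Src family kinase, had 0 counts in members and 18.5 CPM in control. The adaptor Blnk did not follow, at 466 CPM against 437. Without the mature cells the list median was -1.78.

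The surrogate light chain genes differed from each other. Vpreb2 was at 1.70 CPM in members (1.197 to 2.342), 724.3 in control (657.5 to 796.0), 314 in the Mll3-deleted and 104 in the Mll4-deleted cells. The control level was 426-fold that of members (304 to 614), the lowest ratio among the genes ranked. In thinned cells a Vpreb2 UMI was seen in 0.400% of members and 75.7% of control cells. Vpreb1, a rule gene, was at 3107, 5744, 3135 and 2398 CPM in the same order of libraries, and Igll1, which encodes lambda 5, at 1033, 1958, 983 and 1225 CPM. The level of Vpreb1 helped to choose the cells.

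Vpreb1 and Vpreb2 are near-identical copies on chromosome 16, and their promoters are shown because the pair had such different counts. The 250 bases upstream of each annotated start were laid against each other without gaps. At the best shift a stretch of 106 bases overlapped and matched at 104 positions (98.11%). Its length was set by the edges of the 250 bases, so the full extent of the match was not examined. The sequences are from RefSeq, GRCm38.p6, 5′ to 3′ on each gene's own strand, with capitals at the 2 positions that differ. The Vpreb1 stretch, chr16:16869256-16869361 on the minus strand, ends at the annotated start, and the Vpreb2 stretch, chr16:17980315-17980420 on the plus strand, ends 144 bases before it.
Vpreb1: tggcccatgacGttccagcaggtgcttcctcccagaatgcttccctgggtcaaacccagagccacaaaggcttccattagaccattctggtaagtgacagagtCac
Vpreb2: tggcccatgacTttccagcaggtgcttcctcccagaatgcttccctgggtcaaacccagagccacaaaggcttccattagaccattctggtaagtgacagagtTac
GENCODE M21 places the Vpreb2 gene at 17980428 to 17981273, so the annotations differ in its start. The transcripts are also alike where 3′ reads fall: of the last 300 bases of Vpreb2, 281 matched 1 Vpreb1 transcript and 241 another, with a longest shared run of 79, while 16 matched each of the other two annotated Vpreb1 transcripts. Reads from one copy may have been lost or counted for the other, so the level of each copy is uncertain.

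Recombination genes differed from control in both directions. The list of 15 recombination and end joining genes had a median of -0.45 (-1.04 to -0.10), with 2 at least 2-fold higher and 3 lower, near the shares of all genes (15.1% and 13.0%). Against the Mll3-deleted cells the median was -0.07 (-0.70 to 0.38). Dntt was at 729 CPM in members, 1395 in control, 906 in the Mll3-deleted and 1303 in the Mll4-deleted cells. Rag2 was at 139, 272, 146 and 196 CPM in that order, so the Mll3-deleted value was close to that of members. Xrcc6, which encodes the Ku70 end-binding protein, was at 82.9 CPM against 589.9 in control. The pro-B list as a whole had a median of -0.84 (-1.04 to -0.53), with 2 of 13 genes at least 2-fold higher and 5 lower, and -0.43 when Hashtag2 cells alone were compared. Cd93, a surface receptor of early B cells, was at 3.03 CPM against 171, whereas Il7r was 2.96-fold higher in members (2.53 to 3.49), at 786 against 266 CPM, and Flt3 was at 33.4 against 10.1.

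The interleukin-7 receptor axis gave no direction against control, with a median of -0.23 (-1.05 to 0.23), 2 of 18 genes at least 2-fold higher and 4 lower. Over all tested genes the shares were 15.1% and 13.0%. Il7r and Cish, a feedback inhibitor induced by Stat5, were the 2 genes of the axis above 2-fold, with Cish at 29.0 CPM in members and 11.8 in control. Socs2, another feedback inhibitor, was at 191 against 95.8 CPM. Pim1, a survival kinase, was at 41.7 against 159.7 CPM and Jak3, the kinase bound to the shared gamma chain, at 2.25 against 15.1.

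Transcription factors of the lineage differed from control in both directions. Of 20 tested, leaving out Ebf1, 4 were at least 2-fold higher and 7 lower, where 15.1% and 13.0% of all genes were. The median was -0.65, which turned to 0.10 when only genes of 100 or more counts were tested. Id3, an inhibitor of E proteins, was at 538 CPM in members and 148 in control. Foxo1, which drives Rag expression, was at 520.03 against 228.6, Tcf4 at 847 against 398 and Bcl11a at 282 against 126. Pax5 was 1.60-fold higher (1.35 to 1.90), at 367.5 against 230.2 CPM. At the other end, Spib was at 2.11 against 80.7 CPM, Pou2f2 at 0.276 (6 counts) against 55.5, Ikzf3 at 0.230 (5 counts) against 23.5 and Irf4, which promotes light chain rearrangement, at 12.95 against 65.5. Tcf3, which encodes the E protein E2A, was at 96.0 against 277 CPM and Lef1 at 409 against 887. Several of these were also low in dividing cells of the same library, with Spib at 3.53, Pou2f2 at 1.19 and Irf4 at 9.09 CPM.

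Genes usually linked with stem cells were present in members. Of the 20 on the list, 9 reached 20 counts, and since that filter reaches lower in members, their count and median are not given as a group result. Hoxa9 was at 65.7 CPM in members (62.4 to 69.2), 83.5 in dividing cells and 6.72 in control (4 counts), a ratio of 9.78 (3.81 to 35.9). Eya1, a phosphatase and transcription cofactor, was at 92.2, 97.3 and 8.40 CPM, a ratio of 11.0 (4.69 to 33.8). Meis1, a partner of Hoxa9, was at 48.2 against 21.8 CPM. Hlf and Gata2 went the other way, at 0.276 and 0.322 CPM in members (6 and 7 counts) against 13.4 and 10.1 in control. The named stem cell genes thus differed in both directions.

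The 10 genes with the highest ratios to control all had 0 counts in control, which with 3 counts as the floor makes each a lower bound. Epha5, an ephrin receptor, was at 163 CPM, at least 32.3-fold higher. Ly6c1, a Ly6 family surface protein, was at 125 CPM (at least 24.7-fold) and the heavy chain variable gene Ighv1-23 at 109.7 CPM (at least 21.8-fold). The others were Gm43154, Brinp3, Sel1l3, Rftn2, Basp1, Tcf7l1 and S100a16, at 57.0 to 74.5 CPM and at least 11.3-fold to 14.8-fold higher. Epha5 and Brinp3 were at 146 and 70.8 CPM in dividing cells, near their level in members, while Ly6c1 at 66.8 and S100a16 at 26.4 CPM were lower there. Epha5 was at 0 in the Mll3-deleted cells and at 117 CPM in the Mll4-deleted cells, in which 3 counts are 39.1 CPM.

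Besides Vpreb2 and Cd74, the 10 lowest ratios belonged to Myl10, Iglc1, Napsa, A630023P12Rik, Lsp1, Iglc3, Jhy and Camp. Myl10 and Napsa were both at 232 CPM in control and at 0.367 and 1.06 CPM in members. Iglc1 and Iglc3, lambda constant genes, had 0 and 1 counts in members, and the setting without mature cells removes every cell with a UMI of either. Camp, a neutrophil granule gene, was at 6.43 against 723 CPM. All 16 tested myeloid genes were at least 2-fold lower in members, where 13.0% of all genes were, with a median of -4.82. The libraries differed in their other cells. B-gate cells were 98.9% of quality barcodes in the Mll3/4-deleted library and 6.98% in control. The 7226 control cells outside the gate held 64459 CPM of the 20 myeloid genes. Camp was at 13713 CPM in the 85 cells of the Mll3/4-deleted library outside the gate. The part of free RNA in the control level was not tested.

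Immediate early genes, which respond to stimuli and to tissue handling, had a median of -1.49 over 11 genes, with 7 at least 2-fold lower and 2 higher. The shares over all tested genes were 13.0% and 15.1%. Jund was at 270.0 CPM against 760 and Cd69 at 34.2 against 588, whereas Egr1 was at 59.7 against 15.1.

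Adhesion and homing genes were lower in members, with a median of -1.80 over 9 genes, 5 of them at least 2-fold lower and 0 higher. The shares over all tested genes were 13.0% lower and 15.1% higher. Itga4, an integrin that holds cells to marrow stroma, was at 136 CPM in members, 477 in control, 378 in the Mll3-deleted and 365 in the Mll4-deleted cells. In the same order, Cxcr4, the receptor for the marrow chemokine Cxcl12, was at 16.1, 101, 73.2 and 117. Itgb1 and Cd44 were at 102 and 34.5 CPM in members against 73.9 and 20.2 in control.

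Members held more of the growth genes than non-dividing control cells. The 22 ribosome biogenesis and Myc target genes had a median of 0.93 (0.45 to 1.40), with 8 at least 2-fold higher and 0 lower. Over all tested genes, 15.1% were higher and 13.0% lower. Nolc1, a nucleolar protein, was at 88.7 CPM against 25.2, and Dkc1, a pseudouridine synthase, at 128 against 35.3. Among the 30 S phase genes 10 were at least 2-fold higher and 2 lower, with a median of 0.28 (-0.45 to 1.02), so the list gave no direction. Cdkn2c, an inhibitor of Cdk4 and Cdk6, was 4.08-fold higher in members (2.90 to 5.93), at 226 against 55.5 CPM. Of the Bcl2 family, the survival gene Bcl2l1 was at 64.9 against 23.5 CPM, Bmf at 63.9 against 30.2 and Mcl1 at 142 against 274.

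Heavy chain variable genes set the members apart from the other libraries. The 185 Ighv genes summed to 470.05 CPM in members (461 to 479), 435.5 in intermediate, 336.5 in dividing and 15.1 CPM in non-dividing control cells (6.92 to 28.7). They summed to 34.7 CPM in the Mll3-deleted and 65.2 CPM in the Mll4-deleted cells, from 18 and 5 UMIs. At least 1 Ighv gene was seen in 92.0% of members, at least 2 in 78.0%, and the median member held 3. With cells thinned to 3000 UMIs the share was 71.4% of members (69.5 to 73.3%), 60.6% of dividing cells and 1.94% of control cells (0.236 to 6.84%). It was 2.53% in the 79 thinned cells of the library outside the B gate (0.308 to 8.85%), which were rich in myeloid RNA. The source of the Ighv RNA was not tested.

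Members detected 140 of the 185 genes, and genes of the Ighv1 family gave 89.8% of the Ighv UMIs. Ighv1-23 (chromosome 12, 114764450 to 114764883, minus strand) took 23.3% of the Ighv UMIs at 109.7 CPM. Ighv1-76 and Ighv1-66 followed with 51.9 and 51.3 CPM, then Ighv1-82, Ighv1-75, Ighv1-63 and Ighv1-7 with 22.001 to 30.5. Ighv1-62-3, Ighv1-1 and Ighv1-62-1 completed the 10 highest, 1 of them (Ighv1-1) annotated as a pseudogene, and together they gave 73.2% of the Ighv UMIs. Split by distance from Ighm, the 61 genes farthest away gave 59.1% of UMIs, the next 62 gave 32.4% and the nearest 62 gave 8.47%. Ighm was at 917 CPM in members and 1314 in control. Counts at the 3′ end do not tell a germline transcript of a variable gene from a rearranged one.

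**Figure D4:**
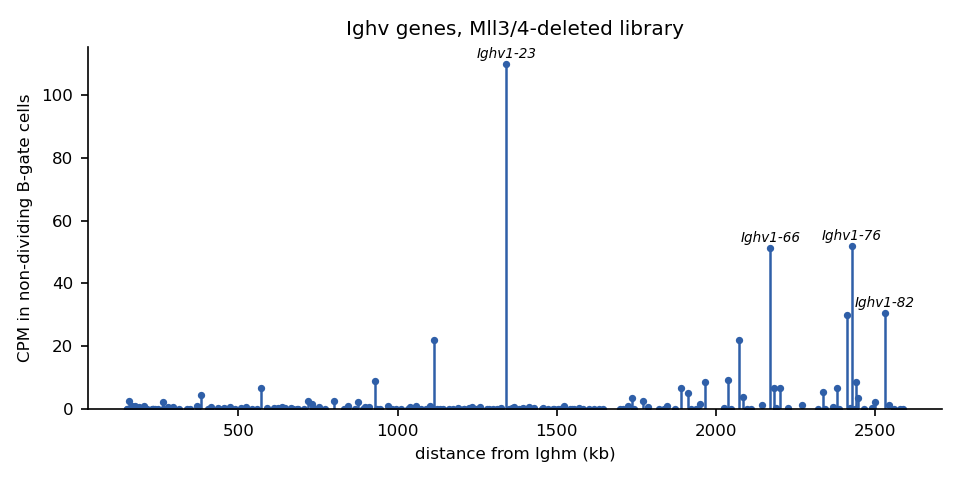
CPM of each heavy chain variable gene in members (vertical axis, linear) against its distance from Ighm in kilobases. The highest points are Ighv1-23 at 109.7 CPM, Ighv1-76 at 51.9 and Ighv1-66 at 51.3.

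Surface antibodies were not used by the rule. Within the library, 11 of 13 surface antibodies had a lower mean count in members than in dividing cells, with a median log2 ratio of -0.20, and dividing cells also had 1.61-fold more gene UMIs by the median. CD117, the Kit protein, had a median of 219 counts per member (quartiles 124 and 378) and 353.5 per dividing cell. CD127, the interleukin-7 receptor protein, had medians of 39 and 61. These 2 had the lowest ratios of the means, at -0.62 each on the log2 scale. Gr1 and CD11b, the myeloid antibodies, were the 2 with higher means in members, at 23.4 against 22.6 and 2.23 against 2.15 counts. Their medians were not higher, at 14 against 16 and 1 against 1, and within Hashtag2 all 13 means were lower in members.

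Summed over the 13 antibodies, the median was 579 counts in all quality barcodes of the Mll3/4-deleted library and 1146 in control. These totals also carry the mix of cells. B-gate cells were 98.9% of quality barcodes in the first library and 6.98% in control. Among Hashtag1 cells, the Hashtag1 median was 1042.5 in members and 838.5 in non-dividing control cells. Among Hashtag2 cells, the Hashtag2 median was 2145.5 and 1353. The totals therefore do not measure antibody depth alone, and values are given side by side. B220, the B-lineage form of CD45, had a median of 13 in members, 221 in non-dividing control cells, 202.5 in the Mll3-deleted and 217 in the Mll4-deleted cells. It was 8 in cells of the same library outside the B gate. CD48 had a median of 25 in members against 959 in control, 758 in the Mll3-deleted and 788 in the Mll4-deleted cells, and 438 outside the gate. CD117 ran the other way, at 219 against 55.5, 52.5 and 88. The low CD48 signal was matched by its RNA, at 13.6 CPM in members and 203 in control, while Ptprc, which encodes CD45 and B220, was at 125.9 against 186.5 CPM.

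**Figure D5:**
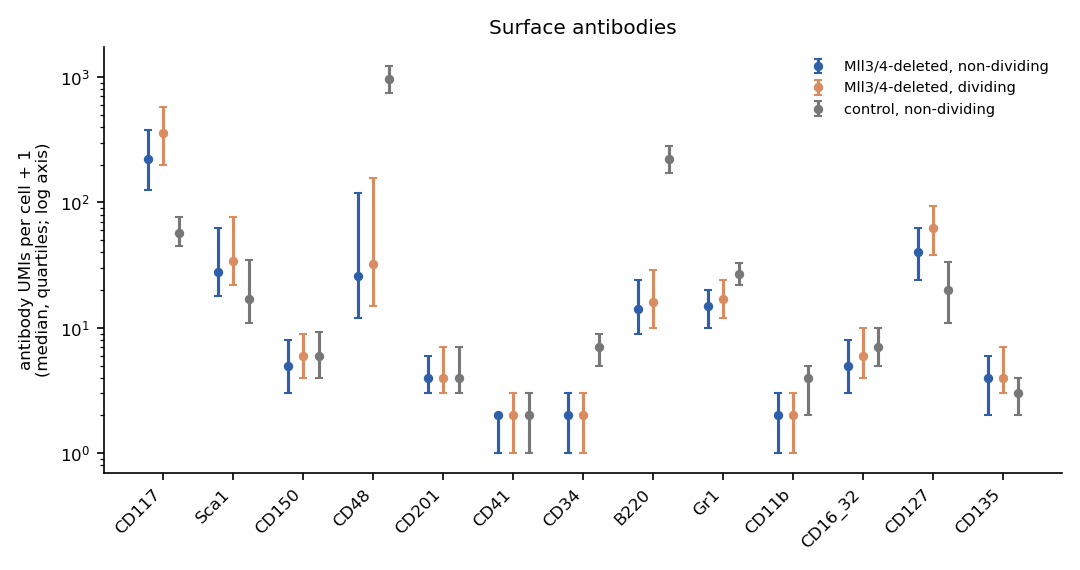
Counts per cell of the 13 surface antibodies, with 1 added, on a log axis, as medians with quartiles over cells, in members, dividing cells of the same library and non-dividing control cells. Before 1 is added, the B220 and CD48 medians of members are 13 and 25, against 221 and 959 in control, and CD117 lies above its control median.

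CD48 and Sca1 were uneven among members. CD48 had quartiles of 11 and 117 and exceeded 491 in the top 10% of members, and Sca1 had quartiles of 17 and 62 and exceeded 340 in its top 10%. CD150 and CD34 stayed low, with medians of 4 and 1.

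In members thinned to 3000 UMIs, the median ratio of variance to mean was 1.04 over 5952 genes, and 84 genes (1.41%) exceeded 2. S100a9 had the highest ratio, at 27.6, and was seen in 11.3% of members with 43.2% of its UMIs in the top 1% of cells. Igkc was seen in 1.87% of members, and 86.3% of its UMIs came from the top 1%, so its low mean rested on few cells. Of B genes, Vpreb3, Mzb1, Vpreb1, Ly6d and Ebf1 were among the 20 most variable, with ratios of 3.27 to 4.18. Doublet scores among the highest of the library were found in 122 members (5.14%).

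The 2 hashtags gave near-equal parts, with 1274 members assigned to Hashtag1, 1046 to Hashtag2 and 52 to neither. Between them 193 of 10915 genes (1.77%) differed by at least 2-fold. Crisp1 was at 75.9 CPM in Hashtag1 members and 9.09 in Hashtag2 members, Rprm at 50.002 and 8.24, and Colec12 at 27.3 and 1.82. Jun, an immediate early gene, was at 47.7 and 154.0 CPM, and Flt3 at 21.4 and 48.2. CD117 protein also differed, with medians of 158.5 and 324.5. All 40 genes ranked highest or lowest in the 2 comparisons kept their direction in both hashtag groups, among them Vpreb2 with 2.22 and 1.07 CPM. The same cells had ranked these genes, so this agreement is no separate check.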

How the data were processed

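The authors deposited raw count matrices of 32285 genes and 15 antibody features (2 hashtags and 13 surface antibodies), 1 library per group, made with Cell Ranger 6.1.2 on mm10, per the submitters' processing notes. Library totals ran from 36413830 to 174795636 gene UMIs over all deposited barcodes. Cells were filtered and gated as the report states, and counts were summed per set, since cells are not replicates. Log2 ratios of CPM (1 CPM added) were computed for genes with at least 20 counts in either set. A gene counted as higher or lower at 2-fold or more, the 14 gate genes were left out of counts of calls and list medians, and exact conditional 95% intervals came from scipy 1.17.1. A list median stands beside the medians of its genes' lower and upper bounds. The scripts were tested on simulated data. Hashtags were assigned at a 4-fold ratio. Scrublet (scanpy 1.11.5) scores marked the highest 0.8% per 1000 barcodes as doublets, which stayed in. Alternatives used scaling factors from edgeR 4.0.16 and DESeq2 1.42.0. The genes named were those of 28 lists and markers, the 10 highest and 10 lowest ratios of 2 comparisons (with members over dividing cells, and over control) at 50 counts and 20 CPM or more, the 20 most variable genes, the 10 most abundant Ighv genes and every surface antibody. Genes differing between hashtags were chosen after their values were seen. The members and lists were chosen with earlier results of these data known.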

Additional observations from a re-analysis of the deposited data

Results flagged for a closer look

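Immediate early genes had a lower median in members than in dividing cells of the Mll3/4-deleted library, with a log2 value of -0.2357 over 12 genes and 2 of them at least 2-fold lower. In control the same list was higher in non-dividing cells, with 1.104 over 10 genes and 6 at least 2-fold higher. Over all tested genes, 7.47% were at least 2-fold lower in the first comparison and 11.0% higher in the control one. The groups went in opposite directions with 1 library each, and the difference was not tested. Hashtag2 cells alone gave 0.07 in the Mll3/4-deleted library, so the direction there did not hold in both hashtag groups.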

How the results depend on the processing

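No paired analysis was possible because each group held 1 library. With no replicates, "moved" here means past the counting interval. The share of non-dividing B-gate cells was 29.9% among cells of 5000 or more UMIs, 45.4% after thinning to 3000 UMIs and 26.6% when no mitosis-gene UMI was allowed. For members over dividing cells, the pro-B median was 0.40 with no mitosis-gene UMI, 0.20 with dividing taken from 1 per 10000, 0.23 with DESeq2 size factors, 0.23 with 10 CPM added, and 0.24 and 0.45 within Hashtag1 and Hashtag2. The pre-B median was -0.094 with trimmed mean scaling, -0.12 with DESeq2 size factors and -0.20 within Hashtag1. The S phase median was -1.01 after thinning, -1.25 with no mitosis-gene UMI, -1.24 with dividing from 1 per 10000, -1.24 with DESeq2 size factors, -1.06 with 10 CPM added and -1.23 within Hashtag1. The mitosis list was at -4.06 with dividing from 1 per 10000 and -3.23 with 10 CPM added, and genes past 2-fold numbered 604 (14 higher, 590 lower) and 513 (25 higher, 488 lower) in place of 1179 (266 higher, 913 lower), so few higher calls were left.

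Against control, the pre-B median was -0.52 at 5000 or more UMIs, -1.22 after thinning, -1.23 and -1.25 with trimmed mean and DESeq2 scaling, -2.52 and -1.18 with a minimum of 1 and 100 counts, and -1.23 within Hashtag2. The pro-B median was -0.43 within Hashtag2. Genes past 2-fold numbered 5829 (4104 higher, 1725 lower) at 5000 or more UMIs, 1986 (1063 higher, 923 lower) at a minimum of 100 counts and 1113 (399 higher, 714 lower) with 10 CPM added, in place of 3278, a minimum of 1 count gave 1765 higher and 2665 lower, and DESeq2 size factors gave 2174 higher and 1030 lower. The antibody median was -0.29 without doublet scores, -0.082 with dividing from 1 per 10000, -0.11 in thinned cells and -0.43 within Hashtag2.

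These values changed sign. Against control at 5000 or more UMIs, the T and NK list was at 3.88, mature B at 0.33, MHC class II at 0.15, Iglc1 at 0.00 and Iglc3 at 0.069. The T and NK list was at 0.47 with a minimum of 1 count, B-lineage transcription factors at 0.10 with 100, and Iglc1 and Iglc3 at 0.00 and 0.00 without mature cells, which that setting fixes by its construction. For members over dividing cells, the myeloid list was at 0.94 with B genes at 50 per 10000, 0.017 with a minimum of 1 count and 1.02 within Hashtag2. As a mean over cells, the immunoglobulin constant list was at -0.012 and mature B at -0.090. Within Hashtag1 the immunoglobulin constant, recombination and dendritic lists were at -0.035, -0.050 and -0.034, and within Hashtag2 the immediate early list at 0.069. Where the construction of an alternative (fewer cells, other genes tested) does not give it, the cause was not tested. Of 560 values for the 40 ranked genes, 556 kept their sign, but the same cells had ranked these genes. The Hashtag fits and the one without mature cells were chosen after seeing the data. Depth limits the other libraries most: 3 counts are 0.138 CPM in members, 5.04 in control and 39.1 CPM in the Mll4-deleted cells.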
